A study of Drosophila melanogaster with 2 samples.

Results

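Divergent promoters are places where 2 protein-coding genes start close together on opposite strands and are transcribed away from each other. Of the thresholded ChIP-seq peaks of the GFP-tagged protein called Side-eGFP, 711 lay at such promoters, 17.4% of the list (95% Wilson interval 16.2 to 18.5). The rest of the list consisted of 1432 peaks at start sites of 1 protein-coding gene, 55 at several starts with no divergent pair and 1899 with no protein-coding start within reach. A peak was taken when its summit, the position of highest signal, lay within 500 bp of start sites of at least 2 protein-coding genes on opposite strands, with the minus-strand start at the lower coordinate. The peaks served 679 distinct pairs of genes. In 670 peaks the starts of exactly 2 genes were within 500 bp, 36 peaks had 3 genes and 3 had 4. One peak, at PIG-M and NC2alpha, had 5 genes. The highest number, 10, belonged to pre-mod(mdg4)-E and pre-mod(mdg4)-Y, units of a locus whose RNAs are joined by trans-splicing.

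Chromatin came from whole Drosophila melanogaster embryos aged 0 to 24 h, with males and females pooled, of 1 line carrying an eGFP exon inside an intron so that a fusion protein is made. The strain is side-MiMIC-GFP. The labels call the fusion Side but say that the insertion targets Sidpn, which the annotation lists as a different gene; their antibody entry reads Side, while their description names an anti-GFP antibody. Both biological replicates belong to this single group, which has no second genotype or treatment, and both were called against the same single control, per the deposited file records. The signal of a peak is the value of the authors' peak caller on a scale that the labels and files do not name, and the read depth behind it is unknown. With 1 group of 2 replicates, and with peaks that are not replicates, shares are given with 95% Wilson intervals and no test was made. The intervals cover counting error only and treat neighbouring peaks as independent.

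In the compact fly genome many housekeeping genes are arranged as divergent pairs that share a short stretch of DNA between their starts. Such promoters often carry the DNA replication-related element (DRE), bound by DREF, or the core promoter elements Motif 1, Motif 6 and Motif 7, while developmental promoters more often carry GAGA elements, a TATA box or an initiator. A ChIP peak between divergent starts cannot be assigned to either gene.

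The stretches between the starts at strong peaks are shown so that the motifs counted further on can be seen in their sequence. They were read from the plus strand of Release 6 of the genome (dm6), only in gaps of 60 to 250 bp that hold no annotated exon, which leaves out wider pairs such as Art3/mRpS10 and mRpS23/CenG1A. Of 191 such gaps, the 4 of highest signal come first, then the strongest that hold a DRE, Motif 1 and Motif 7. Capitals mark, on either strand, the DRE (TATCGATA), Motif 1 (GGTCACAC), Motif 6 (GTATNTTT), Motif 7 (CATCNCTA), the E-box of core promoters (CAGCTG), the E-box bound by Myc (CACGTG), the E-box bound by Snail (CAGGTG) and the class C site bound by HES proteins in vitro (CACGCG). N stands for any base.
Chro/Ssl1, chr3L:22878985-22879088: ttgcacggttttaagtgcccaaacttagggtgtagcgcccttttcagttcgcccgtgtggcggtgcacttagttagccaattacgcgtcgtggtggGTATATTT
Tcs5/CHMP2B, chr3L:5139396-5139618: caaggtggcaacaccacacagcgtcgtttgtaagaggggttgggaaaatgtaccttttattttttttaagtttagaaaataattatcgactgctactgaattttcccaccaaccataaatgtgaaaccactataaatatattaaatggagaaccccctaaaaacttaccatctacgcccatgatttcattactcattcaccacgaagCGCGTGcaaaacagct
RpS27/Nup37, chr3R:25247515-25247657: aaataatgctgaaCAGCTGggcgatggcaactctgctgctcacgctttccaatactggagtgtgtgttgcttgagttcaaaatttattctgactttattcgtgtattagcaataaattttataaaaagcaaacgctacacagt
CG7601/CIA30, chr3R:29736746-29736964: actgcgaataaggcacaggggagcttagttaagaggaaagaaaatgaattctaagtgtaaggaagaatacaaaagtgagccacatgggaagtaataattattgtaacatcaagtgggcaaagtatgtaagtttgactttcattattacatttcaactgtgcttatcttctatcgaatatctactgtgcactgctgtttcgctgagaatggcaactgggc
RpS25/CG4820, chr3R:11216288-11216534: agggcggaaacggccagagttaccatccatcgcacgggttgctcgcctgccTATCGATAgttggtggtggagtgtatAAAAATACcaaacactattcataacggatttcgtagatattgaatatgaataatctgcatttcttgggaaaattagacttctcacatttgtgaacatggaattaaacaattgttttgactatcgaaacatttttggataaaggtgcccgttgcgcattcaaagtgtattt
sta/inc, chrX:1483414-1483478: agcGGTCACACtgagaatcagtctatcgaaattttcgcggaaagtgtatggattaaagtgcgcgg
alien/CG18661, chr2L:8997380-8997604: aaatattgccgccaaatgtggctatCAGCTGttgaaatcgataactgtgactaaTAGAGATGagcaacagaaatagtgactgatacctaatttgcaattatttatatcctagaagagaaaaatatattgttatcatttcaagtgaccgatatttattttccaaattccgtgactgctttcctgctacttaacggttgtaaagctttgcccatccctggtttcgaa
The summit fell at base 108 of the Tcs5/CHMP2B stretch, at base 112 of CG7601/CIA30, at base 37 of RpS25/CG4820 and at base 123 of alien/CG18661. It fell outside the stretch at Chro/Ssl1, where it lay 95 bp inside Chro, and at RpS27/Nup37, where it lay 1 bp from the RpS27 start. The sta/inc peak ended at 1483404, before the stretch begins, and its summit was 12 bp from another annotated start of sta. The CG7601/CIA30 stretch held none of the marked motifs. The absence of a match says only that these letters are not in the stretch.

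The strongest divergent peak was at Chro and Ssl1, where the signal was 1234, the ninth highest of all thresholded peaks, with 714.5 in replicate 1 and 521 in replicate 2. Chro encodes Chromator, a chromodomain protein of interbands and the spindle, and Ssl1 encodes a subunit of the general transcription factor TFIIH. Their starts are 105 bp apart. Art3, an arginine methyltransferase gene, and mRpS10, for a protein of the small mitochondrial ribosomal subunit, had 1110, with 564 and 552 in replicates 1 and 2. At mRpS23 and CenG1A the signal was 1059, with 615.5 and 437. Signal was higher in replicate 1 than in replicate 2 at each of these 3 peaks, and the replicates were nearest to each other at Art3/mRpS10.

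Fbw5/CG9147 had 968 in the pool, with 492.5 in replicate 1 and 489 in replicate 2. Tcs5, for a kinase of the KEOPS complex that modifies tRNAs, and CHMP2B, for an ESCRT-III subunit, had 917, with 486 and 427. CG5757/CG5098 had 793.5, with 527 and 273, the largest ratio of replicate 1 to replicate 2 among the 15 strongest. The remaining 9 of the 15 strongest ran from 939 at Pdrg1/Pal1 to 675 at Stt3A/bves. They were CG11309/CG7632, CG8372/CG8360, CG7601/CIA30, CG3437/CG3552, tank/CG12194, Atat/Shc, for a tubulin acetyltransferase and a receptor tyrosine kinase adaptor, and RpS27/Nup37, for a ribosomal and a nuclear pore protein. All 15 ranked among the 56 highest peaks of the pool.

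At the other end of the list, CG14435/Tmf had a signal of 81.9, Epp/Rab7 had 81.8 and ana2/CG13751 had 81.6, close to the lowest signal of any thresholded peak, 81.5. Rab7 encodes the small GTPase of late endosomes, and ana2 a centriole duplication protein. The farther start was just inside the 500 bp limit at Mpc1/CG42613, 498 bp from the summit with a signal of 167, and at app/CG32100 and CG16956/CG42784, both 495 bp away with 167.5 and 101. It was just outside at shg/cpa, 502 bp away with a signal of 83.8, and at CG6664/CG7728 and CG32428/CG5969, both 503 bp away with 87.5 and 85.1.

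The median signal of the 711 peaks was 134 (95% order-statistic interval 128 to 139), with quartiles at 101 and 203. The median was 121 over the 1432 thresholded peaks at promoters of 1 gene and 124 over all thresholded peaks. The order was the same in each replicate. The medians in replicate 1 were 75.1 for divergent, 69.2 for 1-gene promoter and 69.7 for all thresholded peaks, and in replicate 2 they were 65.3, 59.3 and 61.3. Divergent peaks were 22 of the 100 strongest and 205 of the 1000 strongest peaks, against 17.4% of all thresholded peaks. The 95% Wilson interval of the share among the 100 strongest includes 17.4%. The share among the 1000 strongest was 20.5% (18.1 to 23.1). That interval leaves out 17.4% but overlaps the interval of the whole list, 16.2 to 18.5.

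Each pooled peak was matched to the overlapping peak of each replicate. The top of a replicate is its highest peaks, as many as there are thresholded peaks. Of the 711 divergent peaks, 548 (77.1%, 73.8 to 80.0) matched a peak in the top of both replicates, 94 in replicate 1 only and 63 in replicate 2 only. The 6 that matched in neither were CG2063/Cog6, l(3)72Dn/Tmx3, CG42637/SREBP, EMC3/Dpy-30L1, cerv/CG7872 and barr/lok. The share in both was 72.6% (70.3 to 74.9) at 1-gene promoters and 72.4% over all thresholded peaks. No replicate 2 peak overlapped CG4049/CG3253, Sfmbt/CG5439 or vir/Ice1. Over the other 708 peaks the ratio of replicate 1 to replicate 2 signal had a median of 1.17 and ran from 0.336 at Chd1/Bem46 to 4.82 at Uch-L5/Jarid2. Spearman's rho between the replicates was 0.665 over these 708 peaks, which share a threshold on the pooled signal and so do not span the full range. Summits of the replicates lay a median of 37 bp apart.

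**Figure D1:**
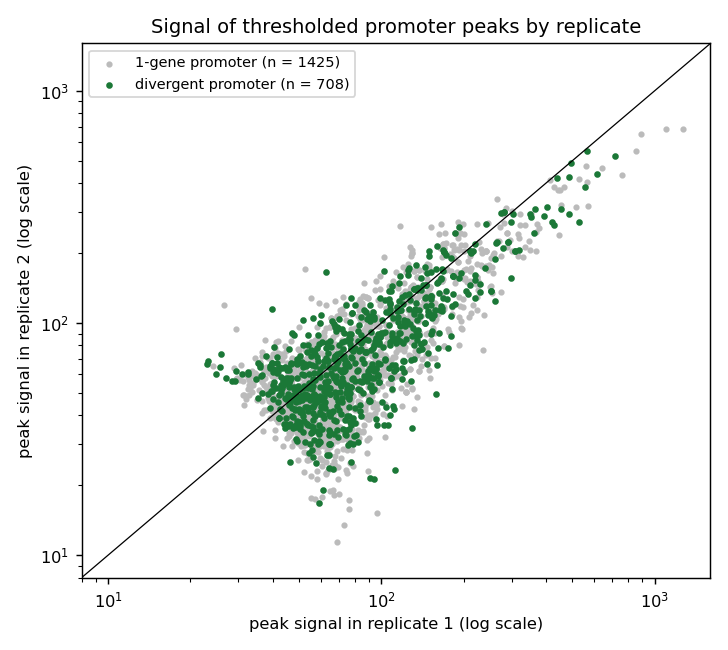
Signal of thresholded peaks in replicate 1 (x axis) and replicate 2 (y axis), both on log scales, for 708 divergent peaks (green) and 1425 peaks at promoters of 1 gene (grey) with a peak in both replicates; the line marks equal signal. Divergent peaks span the cloud of 1-gene peaks, and Chro/Ssl1 is the green point farthest to the right, at 714.5 and 521.

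Some pairs carried more than 1 thresholded peak. At 32 of the 679 pairs 2 peaks passed. Examples are Fur1/Vps33B with 588 and 226, the ferritin genes Fer1HCH/Fer2LCH with 513 and 100.1, and RpL32/CG7943 with 511 and 89.6. In each of these examples the 2 entries have the same start and end, so they are 1 region listed with 2 summits. Of the 711 peaks, 12 shared start and end with another in this way. At eIF3h/senju, by contrast, the 2 peaks, with 305 and 260, do not overlap. Both summits of a pair could match the same replicate peak, and 44 of the 711 peaks shared both replicate peaks with another. Counting the strongest peak of each pair alone, 521 of 679 (76.7%) were among the highest of both replicates.

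Candidate peaks at divergent promoters were thresholded more often than other promoter candidates. Of 2005 candidates of the pooled list whose summits met the divergent rule, 711 were thresholded (35.5%, 33.4 to 37.6), against 13.7% of all 30000 candidates. The share was 19.2% (18.4 to 20.1) of 7449 candidates at promoters of 1 gene, 25.0% (19.7 to 31.1) of 220 with several starts and no divergent pair, and 9.34% of those with no protein-coding start. The intervals of divergent and 1-gene promoters do not overlap. The nearest start was a median of 65 bp from thresholded divergent summits and 109 bp from thresholded 1-gene summits. The divergent rule asks for starts of at least 2 genes near the summit, so it favours a shorter distance by itself. Among summits within 100 bp of a start the shares were 36.5% (34.0 to 39.0) for divergent and 23.0% (21.6 to 24.6) for 1-gene promoters. Among summits 1 to 100 bp upstream of the nearest start they were 40.7% (37.6 to 43.9) and 27.1% (24.9 to 29.4). These matched comparisons were chosen after the data were seen.

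Counted by gene rather than by peak, 1377 of the 4480 genes in annotated divergent pairs had a thresholded summit within 500 bp of their outermost start (30.7%, 29.4 to 32.1). Over all 13945 protein-coding genes the share was 17.6%, and over the 9465 genes outside such pairs it was 11.4% (10.7 to 12.02). A single peak between 2 starts counts for both genes of a pair. Of the 2240 annotated pairs, taken as neighbouring outermost starts at most 1000 bp apart with no other protein-coding start between them, 1412 had a candidate within 500 bp of both starts. A thresholded peak was present at 605, or 27.0% (25.2 to 28.9) of all pairs and 42.8% (40.3 to 45.4) of those with a candidate. Of the genes outside pairs that had a candidate, 26.8% (25.4 to 28.2) had a thresholded peak.

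The share of pairs with a thresholded peak changed with the distance between the starts. It was 31.6% (27.0 to 36.7) at 1 to 100 bp, 28.3% (23.6 to 33.6) at 101 to 200 bp and 41.5% (37.2 to 46.1) at 201 to 300 bp. It was 31.0% (27.3 to 34.9) at 301 to 500 bp and 6.91% (5.07 to 9.34) above that, where a summit can lie within 500 bp of both starts at ever fewer positions. The interval at 201 to 300 bp overlaps none of the others. The top of each replicate alone gave 40.0% and 40.3% of pairs at 201 to 300 bp in replicates 1 and 2, against 29.0% and 27.4% at 101 to 200 bp. In bins of 50 bp the share was 21.2% (15.1 to 28.9) at 151 to 200 bp and 42.0% (35.4 to 48.8) at 201 to 250 bp. That contrast between neighbouring bins was picked after the values were seen.

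**Figure D2:**
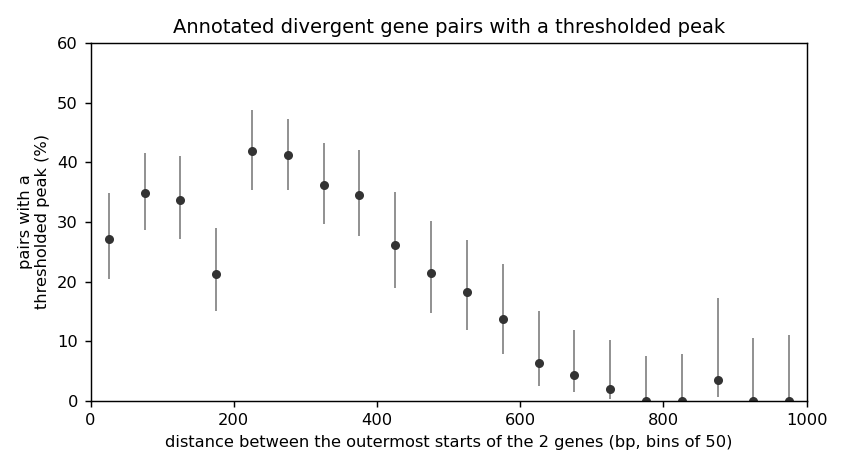
Share of annotated divergent gene pairs with a thresholded peak within 500 bp of both outermost starts (y axis, percent) in bins of 50 bp of the distance between the starts (x axis); bars are 95% Wilson intervals. The share is 21.2% at 151 to 200 bp and 42.0% at 201 to 250 bp, and no pair has a peak in several bins beyond 750 bp.

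Divergent peaks made up different shares of the thresholded peaks on the chromosome arms. The share was 22.0% (19.6 to 24.8) on 3R, with 217 peaks, and 11.6% (9.46 to 14.2) on X, with 83. It was 17.6% on 2L, 16.3% on 2R and 17.7% on 3L, with 134, 131 and 145 peaks, and 1 of 14 on chromosome 4. Counted by annotated pairs, 32.4% (28.6 to 36.4) of those on 3R and 20.3% (16.4 to 24.9) of those on X had a thresholded peak. Males and females were pooled in the embryos, and the part of X copy number in the X values was not tested.

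Most summits lay between the starts. The starts of the pair nearest to the summit were a median of 270 bp apart, with quartiles at 165.5 and 365 bp. The nearer start was a median of 65 bp from the summit and the farther 197 bp. In 561 of the 711 peaks the summit lay between the starts (78.9%, 75.8 to 81.7), while 76 lay on the gene side of the minus-strand start and 74 on that of the plus-strand start. Among the 1294 divergent candidates below the threshold 59.5% (56.8 to 62.1) lay between the starts. With starts more than 500 bp apart the rule itself forces the summit between them. Without those, the counts were 511 of 661 (77.3%, 74.0 to 80.3) above and 652 of 1176 (55.4%, 52.6 to 58.3) below the threshold. Over all members the share was 78.9% in replicate 1 and 76.7% in replicate 2.

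The position of the summit varied with the distance between the starts. With 201 to 300 bp between them, 209 of 232 thresholded summits lay between the starts (90.1%, 85.6 to 93.3), against 54.5% (49.1 to 59.9) of candidates below the threshold. With 101 to 200 bp the shares were 70.8% (61.1 to 79.0) and 42.2% (35.3 to 49.4). With at most 100 bp they were 33.7% (25.3 to 43.2) and 28.5% (23.5 to 34.2), intervals that overlap. In the gaps of 201 to 300 bp the summit was a median of 126 bp from the minus-strand start and 129 bp from the plus-strand start, with quartiles of 77.8 and 178.5 bp from the minus-strand start. Of the 526 summits that lay between starts at least 100 bp apart, 199 were in the central of 3 equal parts of the gap (37.8%, 33.8 to 42.0), against 27.1% (23.9 to 30.5) of such candidates below the threshold. At Art3/mRpS10 the summit was 115 bp from Art3 and 142 bp from mRpS10. Over all members, 337 of 711 summits (47.4%, 43.7 to 51.1) lay nearer to the minus-strand start.

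**Figure D3:**
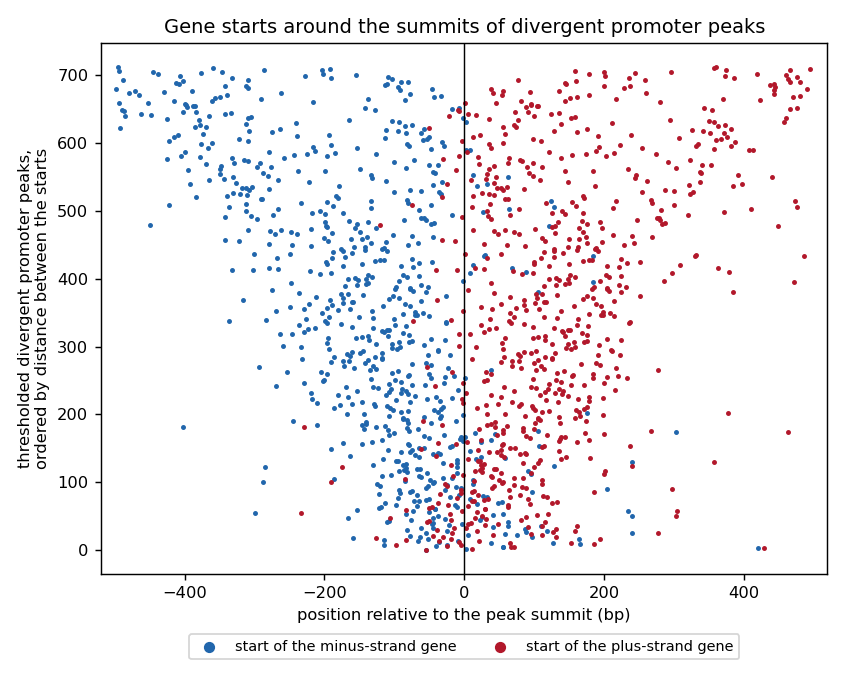
Positions of the minus-strand start (blue) and plus-strand start (red) relative to the summit at 0 (x axis, bp) for the 711 thresholded divergent peaks, ordered from the shortest to the longest distance between the starts (y axis, rank). Most blue points lie to the left of the summit and most red points to the right, as in the 561 peaks with the summit between the starts.

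Upstream positions were also more frequent at divergent than at 1-gene promoters. Thresholded summits lay upstream of the nearest start in 79.2% (76.0 to 82.0) of divergent peaks, a median of 54 bp upstream over all of them. At 1-gene promoters it was 71.2% (68.8 to 73.4). Candidates below the threshold lay upstream in 59.4% at divergent and 47.7% at 1-gene promoters. A divergent gap offers upstream positions for both genes, so the classes differ in the room they give.

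Genes at divergent peaks were shorter than other genes with a thresholded promoter peak. Their median length was 2.39 kb, with quartiles of 1.51 and 4.49 kb, against 5.72 kb for the other genes with such a peak and 2.17 kb for all protein-coding genes. Genes at divergent candidates below the threshold had a median of 2.43 kb. Of the genes at divergent peaks 63.5% (61.0 to 66.0) had 1 annotated start, against 46.8% (44.2 to 49.5) of other genes with a thresholded promoter peak. The share was higher at divergent candidates below the threshold, 67.9% (65.7 to 70.0), and over all protein-coding genes, 73.5%. A start of a noncoding RNA lay within 500 bp of 9 of the 711 summits (1.27%, 0.667 to 2.39). The same share was not counted for other peaks.

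Motifs were counted in the 201 bp around each summit on both strands. Among the 711 divergent peaks 84 held a DRE (11.8%, 9.64 to 14.4), against 6.56% (5.39 to 7.97) of thresholded 1-gene promoter peaks. CGATA, the core recognised by the insulator protein BEAF-32, which every DRE also contains, was in 49.1% (45.4 to 52.8) and 37.9% (35.4 to 40.5). At divergent candidates below the threshold the shares were 13.1% for DRE and 48.8% for CGATA, with intervals that overlap those above it. Over all annotated protein-coding starts the shares were 7.84% and 39.4%, and over all pooled candidates 2.30% and 25.5%.

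Within 100 bp of the summit, Motif 7 differed on the 2 sides of the threshold, with intervals that do not overlap. It was in 95 thresholded divergent peaks (13.4%, 11.1 to 16.1), in 8.58% (7.17 to 10.2) of divergent candidates below the threshold, in 6.42% (5.27 to 7.82) of thresholded 1-gene promoter peaks and in 5.14% of all protein-coding starts. Among the 205 divergent peaks within the 1000 strongest the share was lower, 9.27%. The median distance from summit to match was 51.5 bp in thresholded divergent peaks and 32.5 bp in divergent candidates below the threshold. Closer to the summit the difference was not seen in the same way. A match lay within 50 bp in 43 of 711 thresholded peaks and in 74 of 1294 candidates below the threshold. Most matches of Motif 7 had the same orientation to the gene. Of 103 matches 91 lay on the strand of the nearer gene (88.3%, 80.7 to 93.2), a median of 5.5 bp upstream of its start. Motif 1, bound by M1BP, was in 53 peaks (7.45%, 5.74 to 9.62), in 10.3% (8.74 to 12.05) of divergent candidates below the threshold and in 6.76% of protein-coding starts. It lay on the strand of the nearer gene in 42 of 54 matches, with a median position 0.5 bp upstream. Motif 6 was in 83 peaks (11.7%, 9.52 to 14.2), against 9.85% (8.41 to 11.5) of 1-gene promoter peaks. It was in 11.05% (9.46 to 12.9) of divergent candidates below the threshold and 13.7% of the middles of annotated divergent gaps. At divergent peaks 58.7% of its matches lay on the nearer gene's strand. At least 1 of DRE, Motif 1, Motif 6 and Motif 7 was in 274 divergent peaks (38.5%, 35.0 to 42.2). Divergent candidates below the threshold had 36.6% (34.05 to 39.3), an interval that overlaps. The share was 23.7% (21.6 to 26.0) of 1-gene and 20.8% of all thresholded peaks.

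GAGA elements were rarer than at 1-gene promoters. GAGAGAG, bound by GAGA factor, was in 11 of the 711 divergent peaks (1.55%, 0.866 to 2.75), against 8.80% (7.44 to 10.4) of thresholded 1-gene promoter peaks and 3.69% of protein-coding starts. The share at divergent candidates below the threshold was 1.70%. The class C site CACGCG was in 27 peaks (3.80%, 2.62 to 5.47), against 7.26% (6.03 to 8.72) of 1-gene promoter peaks, 5.64% of all pooled candidates and 2.46% (1.89 to 3.18) of the middles of annotated divergent gaps. Divergent candidates below the threshold had 5.33% (4.2 to 6.7), an interval that overlaps. The thresholded divergent share was 5.73% without replicate 2 and was 5.29% without replicate 1. CACGTG, bound by Myc and Max and in vitro by HES proteins, was in 22 peaks (3.09%, 2.05 to 4.64), against 2.65% of 1-gene promoter peaks and 2.73% of all candidates. CAGCTG was in 16.7% and 13.8%, CAGGTG in 6.33% and 6.77%, and the Zelda site CAGGTAG in 0.844% and 0.978%, of divergent and 1-gene peaks in turn.

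The TATA box hexamer TATAAA was in 32.2% (28.9 to 35.7) of divergent and 23.1% (21.0 to 25.4) of 1-gene peaks. It was in 28.4% (26.0 to 31.0) of divergent candidates below the threshold, in 29.2% of protein-coding starts and in 42.0% (39.9 to 44.0) of the middles of annotated divergent gaps. The GC content of the windows had medians of 37.3% at divergent and 40.8% at 1-gene peaks. The part of base composition in the motif shares was not tested. The Su(H) site GTGGGAA was in 2.25% (1.43% without replicate 1) and 2.58%, the Pho site GCCAT in 27.4% and 28.6%, and the initiator letters TCAGT in 32.1% and 36.5%. The median signal was 105 in the 53 peaks with Motif 1 and 135 in those without it. It was 134 both with and without a DRE.

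**Figure D4:**
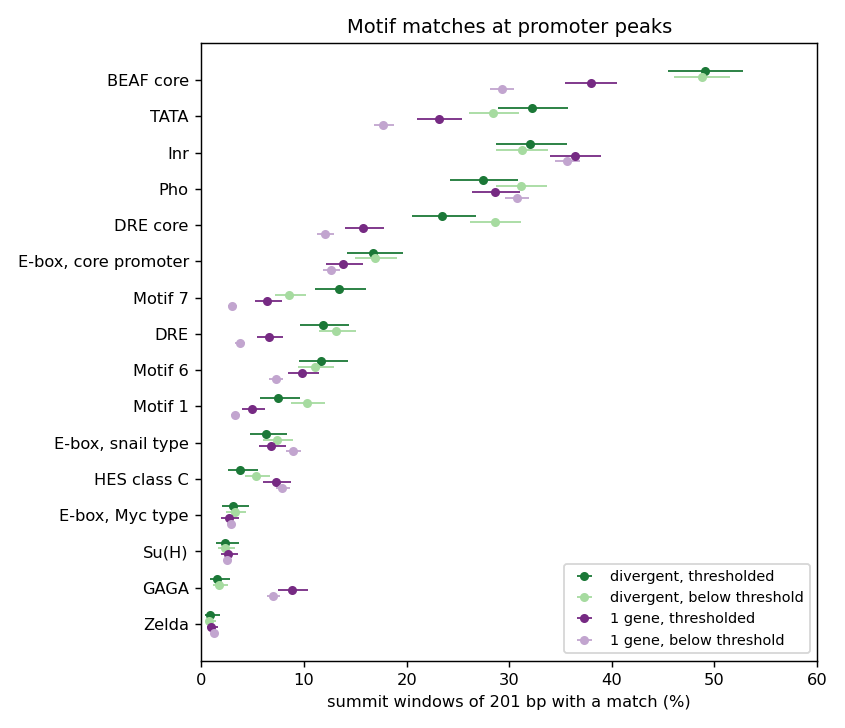
Percentage of 201 bp summit windows with at least 1 motif match (x axis) for 16 motifs, in divergent peaks above (dark green) and below (light green) the threshold and in 1-gene promoter peaks above (dark purple) and below (light purple) it; bars are 95% Wilson intervals. DRE and the BEAF-32 core lie higher in both divergent sets than in both 1-gene sets, GAGA lies lower, and Motif 7 is highest in thresholded divergent peaks, at 13.4%.

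Cytosolic ribosomal protein genes had the highest share of thresholded peaks of the 19 lists. Of the 32 genes for cytosolic ribosomal proteins with a divergent candidate, 28 had a thresholded divergent peak (87.5%, 71.9 to 95.03), against 43.7% of the 3221 genes at any divergent candidate. The 33 peaks had a median signal of 253.5, and in 26 of them the summit was nearer to the ribosomal protein gene. Among ribosomal protein genes with a promoter candidate but none at a divergent promoter, 38 of 48 had a thresholded promoter peak (79.2%). That share lies inside the interval of the divergent one. Over all protein-coding genes with candidates at non-divergent promoters only, it was 27.7%. RpS27/Nup37 had a signal of 722, with 404 in replicate 1 and 316 in replicate 2. Ripalpha/RpL7 had 603, with 362 and 243.5, and Nelf-E/RpL14, where Nelf-E encodes a subunit of the pausing factor NELF, had 526, with 318 and 207. In all 3 replicate 1 was the higher, and all lay far above the median of divergent peaks. A DRE was found at 9 of the 33 peaks and Motif 1 at 3.

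Translation factor genes had a thresholded peak in 10 of 16 (62.5%, 38.6 to 81.5), among them RpL28/eIF1 with 347.5 and eIF3h/senju with 305 and, at a second peak, 260. The eIF1 value counts in both lists, since its partner is RpL28. Genes for aminoacyl-tRNA synthetases, the enzymes that load tRNAs, had one in 11 of 20 (55.0%, 34.2 to 74.2). None of the 8 with candidates at non-divergent promoters only had a thresholded promoter peak. Over all protein-coding genes these 2 shares were 43.7% and 27.7%. SerRS/CG17260 had 290.4, with 125 and 169.5 in replicates 1 and 2, one of the peaks with the higher value in replicate 2. Hem/IleRS had 228, with 130.1 and 95.4, where Hem encodes a subunit of the actin regulator WAVE. ArgRS/CG8578 had 208.

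Genes of mitochondrial proteins lay near the background of all genes at divergent candidates, 43.7%. Those for mitochondrial ribosomal proteins had a thresholded divergent peak in 21 of 52 (40.4%, 28.2 to 53.9), and those of oxidative phosphorylation in 13 of 33 (39.4%, 24.7 to 56.3). Among those with candidates at non-divergent promoters only, 2 of 15 and 5 of 30 had a thresholded promoter peak, against 27.7% of all such genes. The mitochondrial ribosomal genes had 2 of the 3 strongest divergent peaks, at mRpS10 and mRpS23, and mRpL23/CG9004 had 595, with 304 and 294.5. Over their 21 peaks the median was 139, and in 7 the summit was nearer to the mitochondrial gene. ND-ASHI/Fum1, for a subunit of complex I and fumarase, had 254, TppII/ND-MWFE 224 and ND-51/CG13994 220.1. Of 5 import genes 2 had a peak, Tom7 of the outer membrane translocase with CG8229 at 274 and Tim10/Ppcdc at 111.

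Genes of the RNA polymerases, Mediator and the general factors had a thresholded divergent peak in 20 of 46 (43.5%, 30.2 to 57.8). Of those with candidates at non-divergent promoters only, 5 of 28 had a thresholded promoter peak. Over all protein-coding genes the shares were 43.7% at divergent candidates and 27.7% with candidates at non-divergent promoters only. MED30/Rev1, for a Mediator subunit and a DNA repair polymerase, had 404, with 213 and 199. CG11247/Polr2H had 334 and elm/MED27 had 277. Splicing genes had 9 of 24, led by Oda/SmD3 with 170.1, SF2/pad with 155 and Sf3a1/Irc with 99.3. None of the 8 splicing genes with candidates at non-divergent promoters only had a thresholded promoter peak. Nuclear pore genes had 4 of 12, led by Nup37 with RpS27, Nup98-96/mbc with 276 and Csl4/Nup160 with 275.

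DNA replication genes had a thresholded divergent peak in 9 of 20 (45.0%, 25.8 to 65.8), with a median signal of 95.8, lower than the 134 of all divergent peaks. The strongest were dup/SRPK, where dup encodes the licensing factor Cdt1, with 234, CG13933/PolD2 with 182 and PCNA2/CG10366 with 169.9. The only peak whose genes were both in 1 of the 19 lists lay between RPA1, for the single-strand binding protein, and Mcm2, for a helicase subunit, 519 bp apart. Its signal was 84.4, with 46.1 and 44.2 in replicates 1 and 2. Cell cycle genes had 12 of 25 (48.0%, 30.0 to 66.5). Over all genes at divergent candidates the share was 43.7%, inside the intervals of both lists. The cell cycle peaks were led by Bub3/Cap-D2 with 203, CG3281/aurA with 174 and CG32856/Rbf2 with 169. These genes encode a checkpoint protein, a condensin subunit, the Aurora A kinase and a retinoblastoma family protein.

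Proteasome genes had a peak in 6 of 20 (30.0%, 14.6 to 51.9), led by Hat1/Rpn5 with 287, l(2)37Bb/Rpn3 with 224 and Rpn6/ave with 179. Vesicle traffic genes had 24 of 47 (51.1%, 37.2 to 64.7), and 10 of 37 (27.0%) with candidates at non-divergent promoters only. Over all protein-coding genes these 2 shares were 43.7% and 27.7%, so the list has about the gap of all genes. The strongest vesicle traffic peak was Fur1/Vps33B, for a furin protease and a subunit of a vesicle tethering complex. It had 281 in replicate 1 and 300.5 in replicate 2. Vps36/Liprin-beta, for an ESCRT-II subunit and a scaffold protein, had 265.5, and PIG-A/Vps50 had 248.

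Notch pathway genes had a thresholded divergent peak in 4 of 7, at Snx21/aph-1 with 285, neur/hyx with 105, Nle/Sf3b1 with 86.1 and Ote/pen-2 with 82.9; aph-1 and pen-2 encode subunits of gamma-secretase and neur a ubiquitin ligase. The HES family, the basic helix-loop-helix repressors to which Sidpn belongs, had 1 gene at a divergent candidate and none at a thresholded one. Of its 9 genes with candidates at non-divergent promoters only, 2 had a thresholded promoter peak, against 27.7% of all such genes. No gene of the sidestep and beaten path families, the Hox complexes or the cuticle proteins was at a divergent candidate, and 1 of 3 chemosensory receptor genes was at a thresholded one, Ir60e/CG13585 with 116.5. Neither side nor Sidpn has a divergent partner within 1000 bp, and neither was at a divergent candidate. Each list is a few genes long next to the 3221 at divergent candidates, and of the 16 lists with a gene at a divergent candidate only the cytosolic ribosomal proteins have an interval that leaves out the 43.7% of all genes.

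**Figure D5:**
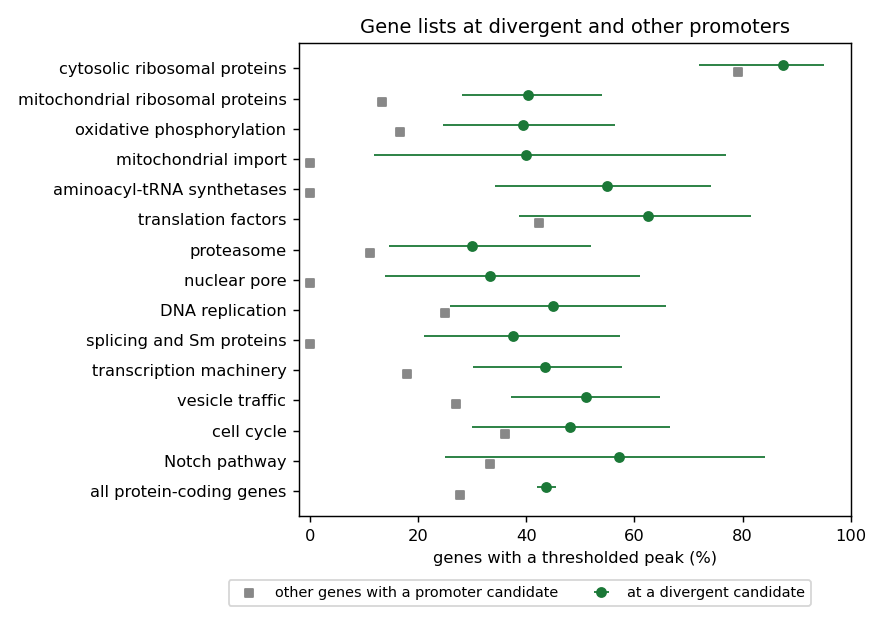
Percentage of genes with a thresholded peak (x axis) in each list with at least 5 genes at divergent candidates: genes at a divergent candidate with a thresholded divergent peak (green circles, 95% Wilson intervals) and other genes with a promoter candidate and a thresholded promoter peak (grey squares). Cytosolic ribosomal protein genes are high in both, at 87.5% and 79.2%, and all protein-coding genes are at 43.7% and 27.7%.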

How the data were processed

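Chromatin immunoprecipitation followed by sequencing was represented by peak lists on dm6 for replicate 1, replicate 2 and their pool, 30000 candidates each, and by the authors' list of peaks past the irreproducible discovery rate threshold. The signal of each peak is the value the authors deposited, on a scale not given in the sources used here; nor are the aligner, caller and threshold. The thresholded peaks were the pooled candidates of highest signal. Both replicates are from 1 group, with unknown depth.

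Start sites of all transcripts of protein-coding genes came from Ensembl release 115 (annotation 6.54) and sequence from Release 6. The summit was column 2 plus column 10, given 1-based. For each peak the described pair is the minus and plus start of smallest summed distance. Replicate values are those of the highest-signal overlapping replicate peak. Motifs were searched within 100 bp of the summit. Genes named are the 15 strongest peaks, the 3 strongest of each of 19 lists, peaks with both genes in 1 list, the 3 weakest, those nearest the 500 bp limit, side and Sidpn; other named genes were chosen after their values were seen. The members and lists were chosen with earlier results of these data known. Alternatives were windows of 200 and 1000 bp, outermost starts, the 1000 strongest peaks, each replicate alone, a motif window of 50 bp, and replicate matching by summits. Scripts were tested on simulated data and used Python 3.11.15, numpy 2.4.6, scipy 1.17.1 and pandas 2.3.3.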

Additional observations from a re-analysis of the deposited data

How the results depend on the processing

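With starts within 200 bp the rule found 372 peaks and with 1000 bp 946. The outermost start of each gene gave 629, the 1000 strongest peaks 205, and a single replicate 699 to 715. The thresholded share of divergent candidates was 48.4% at 200 bp, 26.7% at 1000 bp, 10.2% with the 1000 strongest peaks and 34.7 to 38.1% with a single replicate. The share of pairs with a thresholded peak was 14.5%, 34.6% and 7.95% under the first 3 of these, and 26.3 to 26.6% with a single replicate. The median signal was 145 at 200 bp, 261 for the 1000 strongest peaks and 64.2 to 73.8 in single replicates, where the median over all thresholded peaks is lower too. Summits between the starts were 73.7% at 1000 bp, 73.5% with outermost starts, 75.6% of the 1000 strongest and 76.8 to 78.2% with a single replicate. Peaks high in both replicates were 79.8% at 200 bp, 75.3% at 1000 bp, 100% of the 1000 strongest and 69.3% when replicate summits had to lie within 100 bp. A window of 50 bp around the summit lowered all 16 motif shares, as a shorter window must. With a single replicate the class C site ran from 5.29 to 5.73%, Su(H) from 1.43 to 2.10%, TATAAA reached 35.9% and TCAGT was as low as 28.2%. Among the 1000 strongest peaks 5 motif shares moved outside their intervals, including Motif 7 at 9.27%, Motif 1 at 3.41% and CGATA at 42.4%. Counts of 10 of the 19 gene lists moved by over 1.5 times at 200 bp, of 4 at 1000 bp and of 13 with the 1000 strongest peaks, and of none with outermost starts or a single replicate. No paired analysis was possible because the series has 1 group. Unknown depth and the single control limit what signal can show.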

Other observations

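Several genes for insulator and promoter-associated proteins were themselves at divergent peaks. The list was drawn up after the values were seen, so no weight attaches to its count. Of 16 genes for insulator and promoter-associated proteins, 5 had a candidate at a divergent promoter and all 5 had a thresholded one. The background was 43.7% of the 3221 genes at divergent candidates. Besides Chro, Dref shared a peak with RpL13 (signal 339.5, with 220.2 in replicate 1 and 128 in replicate 2), and Cp190 with CG4338 (215, with 107 and 115). For pzg with CG12974 the signal was 122 (71.3 and 53.9), and for M1BP with CG8202 it was 105 (64.8 and 49.5). BEAF-32, pita and Trl had a thresholded promoter peak that was not at a divergent promoter, and CTCF, Ibf1, Ibf2, pho, su(Hw), zld, ZIPIC and mod(mdg4) had none. For mod(mdg4) this holds for the gene entry of that name only. The separate entries pre-mod(mdg4)-E and pre-mod(mdg4)-Y were at a thresholded divergent peak.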
